A study of Mus musculus with 6 samples.

Results

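The 7 genes described here are Slc34a1, Lrp2, Cubn, Miox, Kap, Acsm2 and Pck1, which mark the proximal tubule of the kidney. They were chosen by name from a list that was itself selected on these data: on their read counts in whole glomeruli and on the loss of those counts in dissociated cells. They are 7 of the 49492 genes in the bulk count tables, and all 7 had at least 1 transcript count among the 28327 genes seen in single cells. The question was how far the proximal tubule RNA of a whole glomerular preparation is missing from the single cells made from it.

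Glomeruli, the filtering units of the kidney, came from male CD1 IGS outbred mice of 8 weeks. The labels name no genotype, allele or agent for any group. Group 1 is 1 bulk RNA-seq library of whole, live glomeruli (500 ng of total RNA). Group 2 is 1 bulk library of dissociated glomerular cells that were sorted and fixed in 80% methanol (95 ng). Group 3 is 4 Drop-seq libraries (replicates 1 to 4) of dissociated cells in 80% methanol; Drop-seq captures single cells with barcoded beads in droplets and counts transcripts by unique molecular identifiers (UMIs). The number of mice behind each library is not given in the sources used here, so the spread between the Drop-seq libraries may be technical. Dissociation, sorting, methanol and RNA input differ together between the bulk libraries and cannot be told apart.

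The proximal tubule is the segment directly downstream of the glomerulus, and the tubule leaves Bowman's capsule at the urinary pole. Its cells carry a brush border and take back filtered phosphate, glucose, amino acids and proteins from the primary urine. They also make glucose and secrete organic ions. A preparation of glomeruli can carry pieces of attached tubule, proximal or distal.

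The bulk libraries held 28407317 (whole) and 24555632 (dissociated) reads on genes. The 4 Drop-seq libraries held 18557558 UMIs in 15465 barcodes, from 3528543 to 6411775 UMIs each. Of these barcodes 13993 were kept as cells (at least 300 genes and at most 20% mitochondrial UMIs), 584 were over the mitochondrial limit and 888 had under 300 genes. Library 2 was the deepest and stood apart in its tubular content: 10.5% of its kept cells were tubular-like, against 4.76% to 5.52% in the other 3. Across the libraries 15 barcode sequences occurred in 2 or more, 7 of them in all 4, and no barcode with a UMI of the 7 genes was shared.

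The promoter window of Slc34a1 is shown because it holds a motif linked to the proximal tubule. Any link between this motif and the lower counts in dissociated cells was not tested. RefSeq (GRCm38.p6) gave a window from 250 bases before to 50 bases after the start for all 7 genes, with 8 windows in all because Acsm2 has 2 starts. CAAAGTCC is a motif of the type bound by Hnf4a, a transcription factor of the proximal tubule. Searched on both strands, it stood in the window of Slc34a1 alone of the 7 genes. It stood in 7 of the 91 other proximal list genes with a window and in none of the 22 distal nephron genes, against 1.63% of all 27025 genes. The window of Slc34a1 at chr13:55399398-55399697 (+) follows, 5′ to 3′, with the reverse complement of the motif in capitals.
Slc34a1: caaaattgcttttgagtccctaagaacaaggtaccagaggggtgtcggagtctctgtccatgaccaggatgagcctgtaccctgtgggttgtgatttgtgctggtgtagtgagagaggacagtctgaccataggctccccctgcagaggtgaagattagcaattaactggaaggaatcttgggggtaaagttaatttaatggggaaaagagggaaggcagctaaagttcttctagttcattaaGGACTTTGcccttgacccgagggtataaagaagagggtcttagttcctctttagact
The match began 7 bases before the RefSeq start. The annotation used for positions below places the gene at chr13:55398187-55415592. The whole window lies inside that span, downstream of its first base. The match describes letters in a window and shows no binding.

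In whole glomeruli all 7 genes were plainly present, and in dissociated cells all 7 were nearly gone. Their summed reads went from 48030 (0.169% of reads on genes) to 316 (0.00129%). TPM is the count divided by a gene's exonic length and scaled to a sum of 1000000 over the library. On that scale the level in whole glomeruli was 4054 TPM for Kap, 544 for Miox, 307 for Slc34a1, 142 for Acsm2, 124 for Pck1, 23.1 for Lrp2 and 4.70 for Cubn. The androgen-regulated Kap thus led the order and the long endocytic receptor Cubn closed it. With 1 library in each bulk group these differences have no replicate check. The fold changes below are ratios of counts scaled by TMM (trimmed mean of M values), with exact 95% binomial intervals that cover counting error only.

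Slc34a1 encodes the sodium-phosphate cotransporter of the brush border (gene at chr13:55398187-55415592, + strand, GRCm38). It had 9677 reads in whole glomeruli and 32 in dissociated cells, 212-fold lower (150 to 310). The annotation places Pfn3 on the opposite strand inside its span, and Pfn3 had 187 and 0 reads.

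Lrp2 (megalin; chr2:69424340-69586065, - strand) and Cubn (cubilin; chr2:13276338-13491813, - strand) are the endocytic receptors that take up filtered proteins. Lrp2 had 2600 and 33 reads, 55.2-fold lower (39.2 to 80.3). Cubn had 472 and 11 reads, 30.1-fold lower (16.6 to 60.6), which was the smallest fold of the 7.

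Of the 3 metabolic members, Acsm2 and Pck1 had the largest folds of the 7 and Miox stood in the middle. Miox, myo-inositol oxygenase (chr15:89334398-89337015, + strand), had 6049 and 35 reads, 121-fold lower (86.9 to 174). Acsm2, a medium-chain acyl-CoA synthetase (chr7:119554340-119600690, + strand), had 7075 and 13 reads, 381-fold lower (223 to 716). Pck1, the cytosolic phosphoenolpyruvate carboxykinase of gluconeogenesis (chr2:173153048-173159273, + strand), had 2866 and 7 reads, 287-fold lower (139 to 714). The intervals of Acsm2 and Pck1 overlap, and so do those of Pck1 and Slc34a1.

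Kap, the kidney androgen-regulated protein (chr6:133849851-133853762, - strand), had 19291 and 185 reads, 73.0-fold lower (63.2 to 84.9). It kept the most reads of the 7 in dissociated cells, 185 of their 316. Fewer proximal tubule cells and less proximal RNA per cell cannot be told apart in these bulk libraries.

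**Figure D1:**
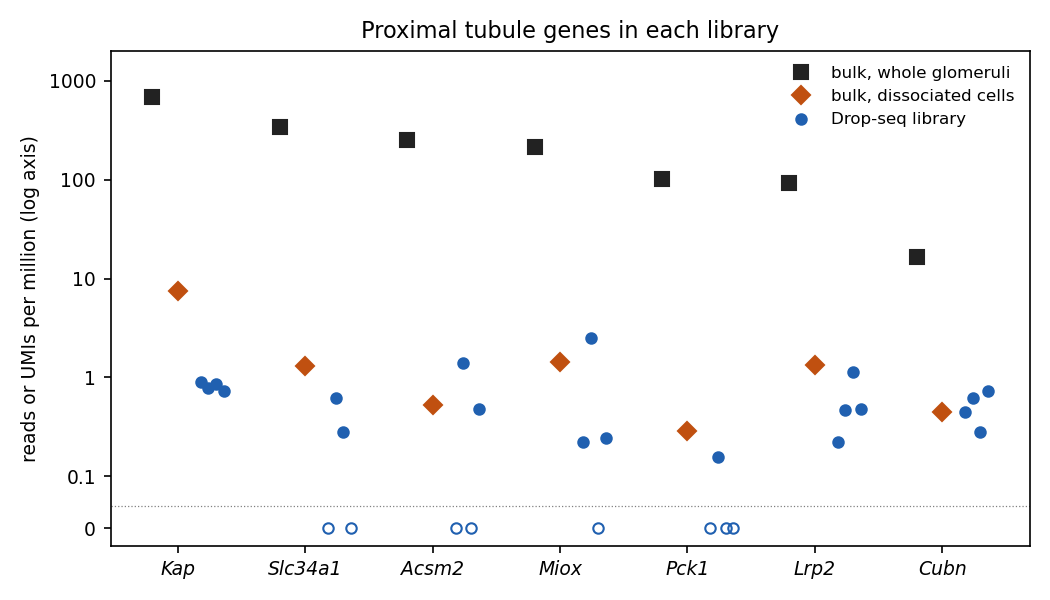
Level of each of the 7 genes in CPM on a log axis, reads for bulk and UMIs for Drop-seq, with black squares for whole glomeruli, orange diamonds for dissociated cells and blue circles for the 4 Drop-seq libraries; open circles at the bottom mark libraries at 0. Every gene stands at 16.6 CPM or more in whole glomeruli, and every Drop-seq library is at 2.50 CPM or less; heights are not per length and are to be compared within a gene.

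Among 12692 genes with at least 100 reads in the 2 bulk libraries together, 2423 were at least 2-fold lower in dissociated cells (log2 ratio at or below -1, prior count 2), which is 19.1%. All 7 genes were among them, and all 7 were at least 16-fold lower, as were 311 of all genes; this contrast chose the genes, so nothing is read from that count. The log2 ratios ran from -8.40 (Acsm2) to -4.72 (Cubn) with a median of -6.85, beside -0.02 for all genes. Counted from the lowest, Acsm2 ranked 2, Pck1 8, Slc34a1 12, Miox 31, Kap 69, Lrp2 101 and Cubn 210.

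Other genes of the proximal tubule went the same way. Of 121 genes on 7 further lists of proximal functions, 105 passed the read filter, 90 were at least 2-fold lower and 3 at least 2-fold higher, with a median log2 ratio of -4.88. Of all 12692 genes 1347 were at least 2-fold higher, which is 10.6%. The lists were drawn up with earlier results of these data known and are no independent evidence of the direction.

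The transporters of organic ions and drugs were lower without exception, 16 of 16 with a median log2 ratio of -6.47. The basolateral anion transporter Slc22a6 went from 1594 to 4 reads, the urate transporter Slc22a12 from 1493 to 7, Slc47a1 from 1281 to 10 and Slc17a3 from 913 to 5. Of the solute transporters, 26 of 28 were lower (median -5.36). The amino acid transporter Slc7a8 went from 3896 to 100 reads and the fatty acid transporter Slc27a2 from 2883 to 29. The scaffold Slc9a3r1 (2512 and 2531 reads, log2 ratio 0.52) and the carnitine transporter Slc22a5 (1667 and 1343, 0.20) were the other 2.

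Genes of amino acid and fatty acid metabolism were lower in 27 of 30 (median -4.68), among them Acy3 (2964 to 110 reads), Fmo1 (4538 to 638) and Cyp4b1 (14273 to 2700). Both Fmo1 and Cyp4b1 were highest in endothelial-like cells of Drop-seq. Fmo1 stood at 104 CPM there against 0.949 in tubular-like cells, and Cyp4b1 at 470 against 6.17. The part of endothelial cells in their bulk values was not tested. Gluconeogenesis and fructose genes were lower in 5 of 7 (median -1.67), with G6pc from 1138 to 3 reads. Gk (1323 and 541 reads, -0.77) and Tkfc (1653 and 2034, 0.81) were the others.

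The endocytic partners and the brush border enzymes include genes that podocytes also make. Partners of the endocytic receptors were lower in 3 of 7 (median -0.03): the adaptor Dab2 had 6499 and 4694 reads (0.04), the chaperone Lrpap1 5569 and 4961 (0.35), Fcgrt 2384 and 421 (-1.98), and Ctsh was higher with 1503 and 3547 (1.75). Of the brush border enzymes 10 of 12 were lower (median -3.77), among them Tmem27 (2067 to 99 reads) and Ggt1 (1789 to 95). The 2 peptidases that podocytes also make were higher, Enpep with 59408 and 117668 reads and Mme with 6071 and 9465 (1.15). Of 5 transcription factors 3 were lower: Hnf4a went from 1219 to 4 reads, Maf from 3585 to 58 and Nr1h4 from 244 to 24.

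Distal nephron genes were the comparison within the same preparation. Of 30 that passed the filter, 3 were lower and 1 higher, with a median log2 ratio of -0.08. The thiazide-sensitive cotransporter Slc12a3 had 30190 and 13961 reads (-0.60), Egf 20507 and 19384 (0.43), Umod 10126 and 6090 (-0.22) and Klk1 9089 and 6202 (-0.04). The median distal gene thus stood near its level in whole glomeruli, while the median of the 105 other proximal genes was at -4.88.

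**Figure D2:**
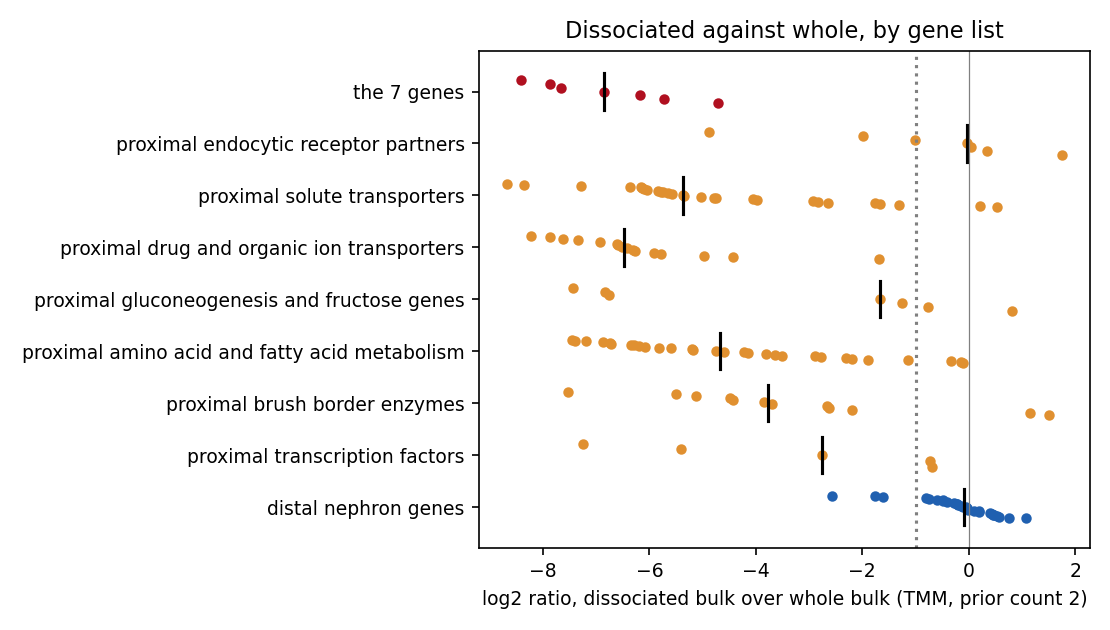
Each point is the log2 ratio of dissociated over whole bulk for 1 gene with at least 100 reads, by gene list; black bars are medians, the dotted line marks a 2-fold loss and vertical spread within a list has no meaning. The 7 genes have a median of -6.85 and the distal nephron genes one of -0.08.

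In Drop-seq the 7 genes together gave 70 UMIs out of 18557558. Replicates 1 to 4 held 8, 42, 9 and 11 of them, which is 1.78, 6.55, 2.55 and 2.66 CPM (UMIs of the genes per 1000000 UMIs of the library; mean 3.39 ± 2.14, SD, n = 4). Library 2 was the highest, with the other 3 close to each other. Whole glomeruli had 1691 CPM of these genes (reads, without TMM), 448-fold the pooled Drop-seq level (355 to 575, counting error of the UMIs only), and dissociated bulk cells had 12.9, 3.41-fold. Without library 2 the pooled level was 2.31 CPM, and these ratios were 733 and 5.58. Drop-seq counts each transcript once from its 3′ end while bulk reads grow with length, so on the TPM scale the ratio of whole to Drop-seq was 1378 and that of dissociated to Drop-seq 11.6. Kap made up 4054 of the 5200 TPM in whole glomeruli and 38.6 of the 43.7 in dissociated cells. Gene by gene, dissociated over Drop-seq was 47.7 for Kap and 3.22 to 5.58 for Miox, Slc34a1 and Pck1. For Cubn, Acsm2 and Lrp2 it was 0.201 to 0.541, so these stood higher in Drop-seq. The ratios across assays have no test.

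Each gene was close to the limit of detection, where 3 UMIs make 0.468 to 0.850 CPM in a library. Slc34a1 had 0, 4, 1 and 0 UMIs in replicates 1 to 4 and a mean of 0.227 ± 0.296 CPM (SD, n = 4). Pck1 had 0, 1, 0 and 0 UMIs, 0.0390 ± 0.0780 CPM. Slc34a1 was at 0 in 2 of the 4 libraries and Pck1 in 3.

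The endocytic receptors were seen in every library. Lrp2 had 1, 3, 4 and 2 UMIs (0.577 ± 0.390 CPM) and Cubn 2, 4, 1 and 3 (0.520 ± 0.195). Whole glomeruli had 170-fold more Lrp2 in CPM (92.4 to 354) and 30.8-fold more Cubn (16.8 to 64.3). On the TPM scale these ratios were 42.9 and 8.71, the 2 smallest of the 7.

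Kap was the most even of the 7 between libraries. It had 4, 5, 3 and 3 UMIs, 0.812 ± 0.0738 CPM, and whole glomeruli had 840-fold more in CPM (509 to 1501) and 5016-fold more on the TPM scale. Its level in dissociated bulk cells, 7.53 CPM, was 9.32-fold the pooled Drop-seq level, the largest such ratio of the 7. Miox had 1, 16, 0 and 1 UMIs (0.740 ± 1.18) and Acsm2 0, 9, 0 and 2 (0.472 ± 0.662). Both had most of their UMIs in library 2.

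Among 11916 genes with at least 100 reads in whole glomeruli, 761 were at least 16-fold lower in Drop-seq than in whole bulk (log2 ratio at or below -4 with 0.1 CPM added to both), which is 6.39%. All 7 genes were among them, with log2 ratios from -10.03 (Slc34a1) to -4.75 (Cubn) and a median of -8.77, beside -0.92 for all genes. Since the comparison uses the same whole library that chose the genes, the count is a description. Without any 1 of the Drop-seq libraries the count was 7 as well. Per exonic length it was 6 of 7, against 696 of 11659 genes, and Cubn, at a log2 ratio of -2.95, was no longer among them. Of the 105 other proximal list genes, 63 (60%) were at least 16-fold lower, and of 29 distal nephron genes 0 were (range -2.20 to 3.79). In Drop-seq 21 of the 121 proximal list genes had no UMI at all, among them G6pc and Slc17a3.

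**Figure D3:**
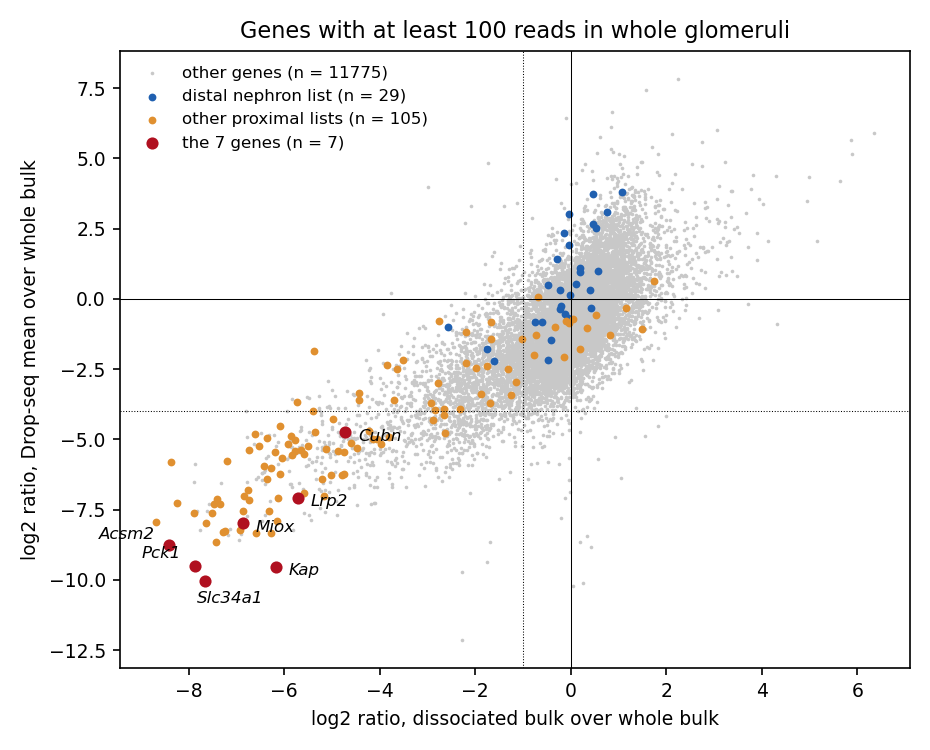
Each point is 1 gene, with the log2 ratio of dissociated over whole bulk on the x axis and of the Drop-seq mean over whole bulk on the y axis; both axes share the whole library, so the slope of the cloud is not evidence of a relation. Dotted lines mark -1 and -4. The 7 genes (red) lie between -8.40 and -4.72 on x and between -10.03 and -4.75 on y.

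The 70 UMIs lay in 45 of the 15465 barcodes, and 1 barcode held 21 of them. That barcode, of library 2, had UMIs of 5 of the 7 genes: 15 of Miox, 2 of Slc34a1, 2 of Acsm2, 1 of Kap and 1 of Pck1. It had none of Lrp2 and Cubn. Its depth was 3086 UMIs over 1597 genes with 3.66% mitochondrial UMIs, rank 302 by UMIs among the 4429 barcodes of its library. The 7 genes made up 0.680% of its UMIs, or 6805 CPM, 4.02-fold their share of reads in whole glomeruli. That fold is not per length: on the TPM scale the 7 genes summed to 5200 in whole glomeruli. The sums differ in make-up, so nothing is read from how near they are. Kap gave 4054 of the 5200 TPM and Miox 544, while Miox gave 15 of the 21 UMIs in the barcode and Kap 1.

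The same barcode held many more genes of the proximal tubule. UMIs of 36 of the 121 other proximal list genes were in it, 96 UMIs in all. Barcodes were also compared over the 97 genes seen in Drop-seq, with Enpep, Mme and Dab2 left out. On that count it had 36 genes and the next 2 barcodes had 12 and 10, at depths of 14839 and 14068 UMIs. Among the 36 genes were Tmem27 with 11 UMIs, Akr1c21 with 10 and the sulfate transporter Slc13a1 with 6 of the 7 UMIs that this gene had in all libraries. All 3 UMIs of the brush border protease Mep1a were there. Its podocyte markers summed to 1 UMI, its endothelial markers to 1 and its immune, mural, parietal and red blood cell markers to 0, while its tubular markers summed to 12. It was clustered without proximal genes and fell into a cluster of 57 cells named immune-like. Cd74, a leading gene of that cluster, had 30 UMIs in the barcode, while none of the 9 immune markers had one. Ccl2 (17) and Gdf15 (14) were also among its 15 highest genes. Whether the barcode held RNA of more than 1 cell was not tested.

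The other 44 barcodes held 49 UMIs of the 7 genes, 39 barcodes with 1 UMI and 5 with 2, and 1 of them had UMIs of 2 of the genes. Their median depth was 2144 UMIs, against 930 for barcodes with none, and a pair of them had sequences 1 base apart. At the share seen in the single rich barcode, a barcode of median depth (931 UMIs) would carry 6.34 UMIs of the 7 genes. Barcodes with UMIs of 3 or more of the genes were 1 of 15465, or 0.00647% (exact 95% interval 0.000164% to 0.0360%). This share was chosen after the barcode had been seen.

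Without that 1 barcode, library 2 had 21 UMIs of the 7 genes, or 3.28 CPM, and the mean over the libraries was 2.57 ± 0.613 CPM (SD, n = 4). Library 2 stayed the highest of the 4. Miox went from 18 UMIs to 3 (0.155 ± 0.110 CPM), Slc34a1 from 5 to 3 and Acsm2 from 11 to 9. Pck1 went from 1 UMI to 0, for which 3 UMIs of all libraries allow up to 0.162 CPM. Lrp2 and Cubn kept their 10 UMIs each.

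**Figure D4:**
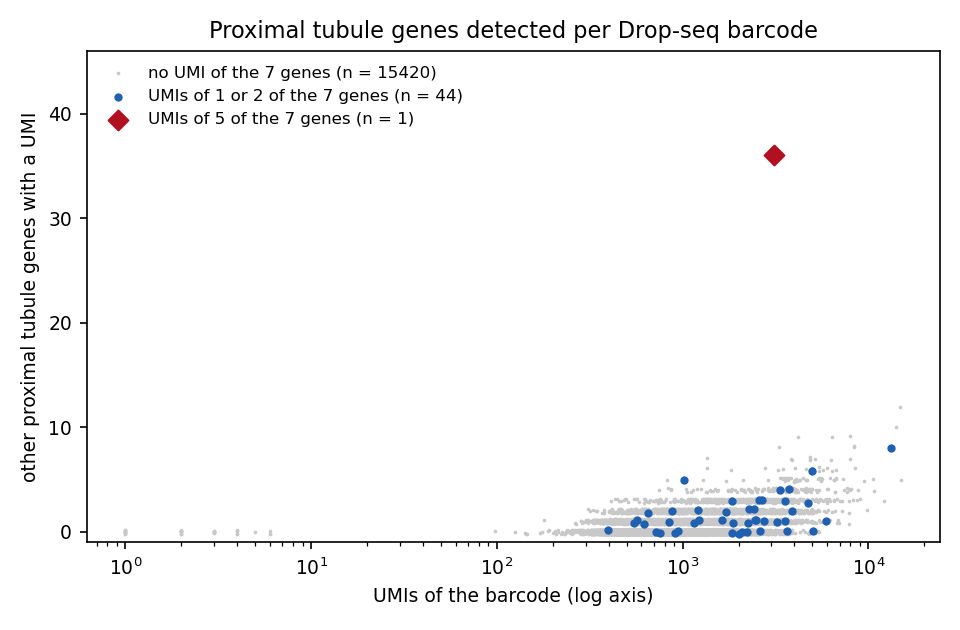
Each point is 1 Drop-seq barcode, with its UMIs on a log x axis and the number of other proximal tubule genes with a UMI on the y axis (Enpep, Mme and Dab2, which podocytes make, are left out; points are spread slightly in height). The red diamond, at 36 genes, is the barcode with 5 of the 7 genes; the 44 other barcodes with a UMI of the 7 genes (blue) lie among the rest.

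The remaining UMIs were thinly spread over the cell types, which were named from markers after clustering without proximal genes. Podocyte-like cells had 18 UMIs in 17 of 10475 cells (1.40 CPM, exact Poisson 95% interval 0.832 to 2.22). Tubular-like cells had 11 in 10 of 929 cells (5.22 CPM, 2.61 to 9.34), and their median depth was 1794 UMIs against 1017 in podocyte-like cells, with a median of 14.3% and 4.26% mitochondrial UMIs. Parietal epithelial-like cells had 6 in 5 of 353 (14.5 CPM, 5.34 to 31.7) and mural-like cells 2 in 2 of 319 (6.74, 0.816 to 24.3). Endothelial-like cells had 0 in 1860 cells, for which the same interval reaches up to 2.50 CPM. Immune-like cells had 0 outside the 1 barcode described above. Podocyte-like cells are not known for most of these genes, and 7 of their 18 UMIs were of Cubn. No background level was measured, so their level is not taken as one. The parietal name rests on a narrow margin: on a scale where 1 means that every marker is at its highest cluster mean, that cluster scored 0.671 for parietal and 0.625 for podocyte markers, with 1 marker among its 10 leading genes. Of the 3 tubular-like clusters, those of 125 and 59 cells also scored close for parietal markers (0.409 against 0.406, and 0.416 against 0.454) and took their name from 1 leading marker each.

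Tubular-like cells were clustered and named on distal nephron genes. All 11 of their naming markers are on the distal list, and 13 of its 32 genes are among the leading genes of their clusters, so the level of that list in them is no finding. The proximal genes were kept out of the clustering and were compared between tubular-like cells and the mean of the other types (edgeR's quasi-likelihood test on UMIs summed per library and type, with library as a block, Benjamini-Hochberg adjusted p under 0.05). Over all 17604 genes tested 22.2% were higher and 10.4% lower. Of the other proximal lists 51 genes could be tested, and 24 were higher and 3 lower.

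Tmem27, Ggt1 and Slc27a2 were among the proximal list genes that were higher in tubular-like cells. Which tubule segment their UMIs came from was not tested. Tmem27, a collectrin that traffics amino acid transporters, stood at 84.9 CPM there and at 0.858 in podocyte-like cells. The gamma-glutamyl transferase Ggt1 stood at 28.5, with no UMI in podocyte-like cells. Both were higher in 4 of 4 libraries, with adjusted p of 1.66e-60 (Tmem27) and 3.77e-23 (Ggt1) from edgeR. Slc27a2 was also higher in 4 of 4 libraries, at 11.9 against 0.312 CPM (edgeR adjusted p = 1.37e-08). The 3 lower genes were Enpep, Dab2 and Maf.

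Of the 7 genes only Kap reached the 10 UMIs that the test needed. Tubular-like cells had 7 of its UMIs, at 8.46, 1.88, 0 and 5.61 CPM in replicates 1 to 4, against 0.0775, 0, 4.18 and 0.0846 for the mean of the other types. Libraries 1, 2 and 4 were higher in tubular-like cells and library 3 was not. Kap passed the test (edgeR adjusted p = 0.00599, higher in 3 of 4 libraries), and a fold is not given because 2 of the other types had no UMI. It had 7 UMIs in tubular-like cells and 5 in the other types tested. It thus met the minimum of 10 UMIs only through the cells where it was high. For that reason the call is not taken as support. The call was lost with DESeq2 (adjusted p = 0.283) and without a filter on low genes (edgeR adjusted p = 0.0572), and over the 9 of 14 settings in which Kap could be tested the adjusted p ran from 0.00473 to 0.283. Without library 1, 3 or 4, with a mitochondrial limit of 10% or with a minimum of 30 UMIs, Kap had too few UMIs for a test.

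The few UMIs of the endocytic receptors were spread differently. Of the 10 UMIs of Lrp2, 5 were in parietal epithelial-like cells, in 4 of 353 cells (12.1 CPM, 3.93 to 28.3), a class with 2.40% of kept UMIs. Podocyte-like cells had 2 and tubular-like cells 2. Of the 10 UMIs of Cubn, 7 were in podocyte-like cells, in 7 of 10475 cells (0.546 CPM, 0.220 to 1.12). These cells held 74.7% of kept UMIs, and Cubn stood at 0.466 CPM over all kept cells, so no preference is read from the 7. Neither had enough UMIs for a test between types, and the values were picked out after they were seen.

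**Figure D5:**
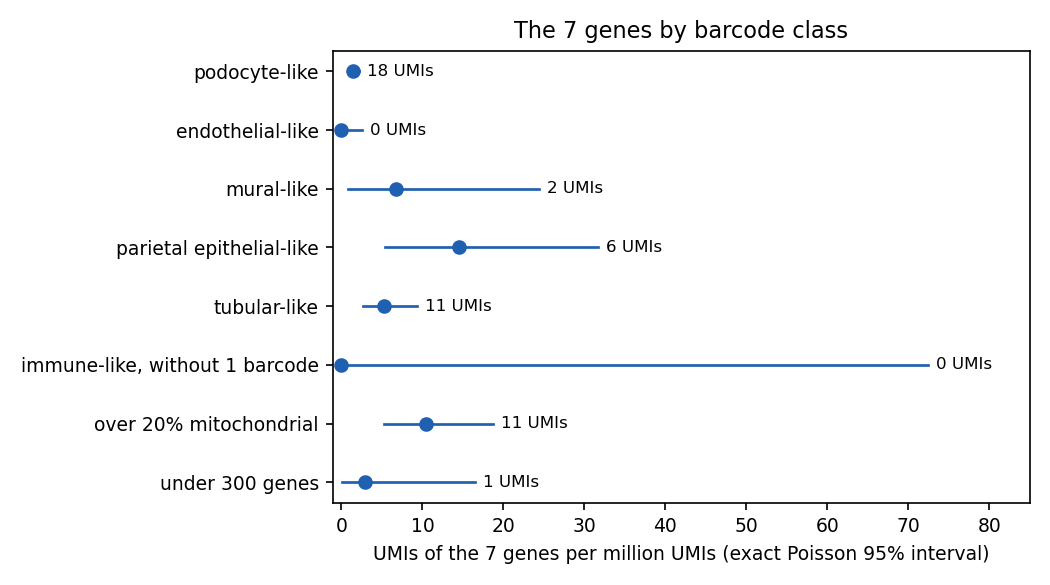
Points are the summed level of the 7 genes in CPM in each class of barcodes, and lines are exact Poisson 95% intervals (counting error only), with the number of UMIs beside each. The immune-like class is drawn without the 1 barcode that held 21 UMIs. Podocyte-like cells are lowest among the classes with a UMI, at 1.40.

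Barcodes that the mitochondrial limit removed held a minority of the UMIs of the 7 genes. They had 11 of the 70 UMIs, in 9 of 584 barcodes, at 10.4 CPM (5.21 to 18.7) against 3.38 (2.57 to 4.37) in kept cells. The kept cells include the barcode of library 2 with 5 of the 7 genes. It gave 21 of their 58 UMIs, and 21 of the 32 in kept cells of library 2. Outside that barcode the removed barcodes held 11 of 49 UMIs. By library the level over the limit was 6.66, 18.1, 0 and 4.74 CPM in replicates 1 to 4, and in kept cells 1.67, 5.46, 2.75 and 2.59. The 0 of library 3 gives no direction, because 3 UMIs would make 15.3 CPM there, and 9 of the 11 UMIs came from library 2. Even at 10.4 CPM the removed barcodes stood far below the 1691 of whole glomeruli.

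Distal tubule RNA moved with this class. The distal list made up 3.86% to 4.75% of UMIs over the limit in the 4 libraries and 0.428% to 1.04% in kept cells, and 24 of its 32 genes were higher over the limit. Its part in the result for the 7 genes was not tested. Over all 17906 genes tested 11.2% were higher and 17.9% lower (edgeR with library as a block). Of 53 other proximal list genes tested 18 were higher and 8 lower. Without library 2 the 18 became 11 of 48. Tmem27 (log2 fold change 2.81 ± 0.310, SE), Ggt1 (3.36 ± 0.481) and Nr1h4 (2.80 ± 0.510) were higher, the first 2 in 4 of 4 libraries and Nr1h4 in 3.

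Of the 7 genes 4 could be tested in this comparison, and Acsm2 alone was higher. It had 5 UMIs over the limit and 6 in kept cells, at 0, 11.4, 0 and 6.64 CPM of nuclear genes over the limit and 0, 0.911, 0 and 0.274 in kept cells in replicates 1 to 4. Both libraries with any UMI of Acsm2 were higher over the limit, and the other 2 had none in either class. The log2 fold change was 3.50 ± 1.15 (SE, edgeR adjusted p = 0.0101). The 6 UMIs in kept cells alone were too few for a test. Acsm2 thus met the minimum number of UMIs only through the barcodes where it was high, and the call is not taken as support. Without a filter on low genes the adjusted p was 0.0658, DESeq2 gave none, and without library 2 or library 4 the gene had too few UMIs for a test; over the settings run the adjusted p ran from 0.00227 to 0.0658. Kap (edgeR adjusted p = 0.471), Lrp2 (0.738) and Miox (0.951) did not pass. Of the 17 UMIs of Miox in kept cells, 15 came from the barcode with 5 of the genes.

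The genes whose pattern was most like that of the 7 were sought among 6174 genes with at least 1000 reads in whole glomeruli, by distance to the median of the 7 in 3 measures: level in whole glomeruli, dissociated over whole, and Drop-seq over whole. Mrc1, Pdgfra, Postn, Col6a3 and Ache were among the 6 nearest. Mrc1, the macrophage mannose receptor, went from 7330 to 45 reads and had 19 UMIs. Pdgfra, a receptor of stromal cells, went from 3543 to 19 reads and had 5 UMIs. Postn (4439 to 43 reads, 9 UMIs) and Col6a3 (3719 to 45 reads, 6 UMIs) encode matrix proteins of fibroblasts.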

How the data were processed

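The deposited values were whole-number counts per gene, made by the authors: UMI counts per barcode for 4 Drop-seq libraries, and read counts with HTSeq summary lines for 2 bulk libraries. Per the labels' protocols the cells went through Drop-seq, whose counts are UMIs; the files do not state the unit. STAR and HTSeq are named in the submitters' processing notes; build, annotation, versions and strand setting are not given in the sources used here. The bulk kit was a stranded TruSeq mRNA kit, per the labels' protocols. Summary lines stayed out of library sizes: reads on no gene were 12.6% (whole) and 8.16% (dissociated) of the reads on genes.

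The members and gene lists were chosen with earlier results of these data known. Bulk counts were scaled with TMM (edgeR 4.0.16) with a prior count of 2, over genes with at least 100 reads. Positions and exonic lengths are GENCODE M21 (GRCm38), matched by symbol; 97.8% of the genes tested had a length. Kept cells had at least 300 genes and at most 20% mitochondrial UMIs. They were clustered (scanpy, Leiden resolution 1) without the proximal genes. Clusters were named from markers by a rule settled after the clusters were seen; no doublet caller was run. UMIs summed per library and type (5 types, each reaching 20 cells in 3 or more libraries) or per barcode class were tested with edgeR's quasi-likelihood test with library as a block, because types and classes come from the same libraries. Genes had at least 10 UMIs, p-values were Benjamini-Hochberg adjusted over all genes tested, and the threshold was 0.05. DESeq2 1.42.0 was an alternative. The procedure was tested on simulated data. Named genes were the 7 members, up to 4 genes of each list with the most reads in whole glomeruli, and the 6 genes of most similar pattern; other names were chosen after their values were seen. Some genes that this rule names are not reported here.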

Additional observations from a re-analysis of the deposited data

Results flagged for a closer look

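In 4 of 16 sets of 4 Drop-seq library values, 1 library stood far from the others; chance gives about 1 in 20. Miox was at 2.50 CPM in library 2, against 0 to 0.242 in the others, and 15 of the 16 UMIs there came from 1 barcode. Pck1 was at 0.156 CPM in library 2 and at 0 in the others, which is 1 UMI of the same barcode; a gene with 1 UMI stands apart wherever it falls, and without it the count is 3 of 15. Gluconeogenesis and fructose genes were at 0.00448% of UMIs in library 1, against 0.00533% to 0.00547% in the others. Brush border enzymes were at 0.108% in library 1, against 0.122% to 0.124%, and Enpep held 18508 of their 22203 UMIs.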

How the results depend on the processing

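All 7 genes were lower in dissociated bulk cells under every scaling, prior count, filter and fold tried. They were chosen for this loss and were 30.1-fold to 381-fold lower, so these settings could hardly have changed that count. Library totals in place of TMM moved the median of all genes to -0.32 and that of the 7 to -7.15. Genes called lower numbered 3991 with at least 10 counts, 5056 with no filter and 1172 at a log2 ratio of -2. The mean Drop-seq level of the 7 was 7.38 CPM over the mitochondrial limit and 2.33 to 3.92 without each replicate. Whole bulk over Drop-seq was 384-fold to 733-fold without each replicate. It was 1378-fold per exonic length, a sum led by Kap, and 640-fold without the barcode with 5 of the genes, both chosen after seeing the data. In tubular-like cells, proximal list genes higher numbered 14 with DESeq2, 13 with at least 30 UMIs and 9 with a mitochondrial limit of 10%; those lower numbered 5 with DESeq2, no mitochondrial limit, 500 genes per cell or Leiden resolution 0.5, and 1 with the 10% limit, where 1103 genes of all were higher and 605 lower. Over the mitochondrial limit, 1935 genes were lower with DESeq2; with a limit of 30%, 761 were higher, 2058 lower and 7 proximal list genes higher; that last count was 11 to 16 without each replicate. Without the replicate block 3928 and 1786 genes were higher and lower in tubular-like cells, and 2075 and 3238 over the limit. The causes were not tested. Miox was higher in tubular-like cells in 2 of the 4 settings that could test it, with a mitochondrial limit of 10% (edgeR adjusted p = 2.27e-07) and with 500 genes per cell (0.00023), and in both the barcode with 5 of the genes lay among them; in the other 2 it did not pass (0.635 and 0.754). The 70 UMIs limit every statement on single genes in Drop-seq.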

Other observations

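A few genes of the proximal lists were nearly gone from the dissociated bulk library and yet present in Drop-seq. Ttc36 had 70 reads in whole glomeruli, 1 in dissociated cells and 97 UMIs (4.96 ± 1.57 CPM, SD, n = 4). Its reads did not reach the bulk filter of 100. Within tubular-like cells it stood at 25.6 CPM, and within podocyte-like cells at 0.468. Slc6a20b had 332 and 4 reads and 56 UMIs. In the other direction, Slc17a3 (913 reads), Slc7a13 (674) and G6pc (1138) had 5, 5 and 3 reads in dissociated cells and no UMI. These genes were picked out after their values were seen, and no test compares the assays.

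Maf, of the proximal transcription factor list, had 134 UMIs in Drop-seq against 58 reads in dissociated cells. Mural-like cells had it at 155 CPM, parietal epithelial-like cells at 87.3 and tubular-like cells at 1.90. Parietal epithelial-like cells also held Gatm, the glycine amidinotransferase, at 58.2 CPM (50.2 in endothelial-like cells) and the folate receptor Folr1 at 24.2. Lrp2, with 5 of its 10 UMIs in parietal epithelial-like cells, stood at 12.1 CPM there. The 4 genes were noticed in these data and were not tested together.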
